A study of Mus musculus with 24 samples.

Results

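The interferon regulatory factors are a family of transcription factors that share a DNA-binding domain and recognise GAAA repeats in interferon and interferon-stimulated genes. The 8 members described here are Irf1, Irf2, Irf3, Irf4, Irf5, Irf7, Irf8 and Irf9. They are the rows of the count table whose Ensembl ID maps to these symbols, 8 of the 56941 genes listed, and all 8 passed the filter on low counts. By identifier and chromosome in GRCm38, these were Irf1 (ENSMUSG00000018899.18, chromosome 11), Irf2 (ENSMUSG00000031627.10, chromosome 8), Irf3 (ENSMUSG00000003184.16, chromosome 7), Irf4 (ENSMUSG00000021356.11, chromosome 13), Irf5 (ENSMUSG00000029771.13, chromosome 6), Irf7 (ENSMUSG00000025498.16, chromosome 7), Irf8 (ENSMUSG00000041515.11, chromosome 8) and Irf9 (ENSMUSG00000002325.16, chromosome 14). In macrophages, the receptor TLR4 senses lipopolysaccharide (LPS), a part of the bacterial outer membrane, and its adaptors lead kinases to phosphorylate IRF3, which then switches on the gene of interferon beta. Secreted interferon beta binds its own receptor and assembles ISGF3, a complex that holds STAT2 and IRF9, which raises interferon-stimulated genes, Irf7 among them. IRF1 and IRF2 bind the same sites and were first described as an activator and a repressor, IRF5 acts below the adaptor MyD88 on inflammatory cytokine genes, and IRF4 and IRF8 bind DNA together with partner factors such as PU.1 in myeloid and lymphoid cells.

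RNA was sequenced from mouse bone marrow-derived macrophages (BMDM), cultured from marrow progenitors. The 6 groups were HDAC9 knockout (KO), HDAC9 deltaCIS (dCIS) and wild type (WT), each after 6 hours with 100 ng/ml LPS and untreated, with 4 libraries in each. HDAC9 is a class IIa histone deacetylase, and the title of the series ties its expression to a cis-regulatory element. The sources used here do not give how either allele was made, nor the strain, sex and age of the mice. The labels number the 4 libraries of a group but do not tell whether each is its own animal or culture, and the p-values below therefore refer to variation among libraries, part or all of which may be technical.

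Total counts ranged from 14636058 to 19181707 per library. Libraries 3 and 4 of dCIS after LPS had counts in 17628 and 15997 genes, fewer than the other 22, which had counts in at least 20458. Hdac9 averaged 0.302 ± 0.155 CPM (counts scaled to library size) in KO after LPS and 1.04 ± 0.218 CPM in untreated KO, 14.7 ± 5.26 and 15.6 ± 2.23 CPM in dCIS, and 12.3 ± 2.83 and 11.2 ± 1.46 CPM in WT (SD, n = 4). KO was lower than WT in both conditions (edgeR adjusted p = 1.38e-09 untreated and 1.37e-10 after LPS), and dCIS was not called against WT (adjusted p = 1.00 untreated and 0.647 after LPS). All 8 macrophage markers examined, such as Adgre1 and Csf1r, exceeded 1 CPM in every group. The T and NK cell list summed to at most 0.611 CPM, the fibroblast list to at most 0.659 CPM, the conventional dendritic cell list to at most 2.47 CPM and the neutrophil list to at most 5.30 CPM in any library. The B and plasma cell list reached 14.8 CPM, and the plasmacytoid dendritic cell list, nearly all of it Tcf4, reached 389.7 CPM.

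The promoters of 4 members are shown because these genes rose together after LPS yet differ in the elements they hold. Each line gives the 250 bases before the RefSeq start of the gene in GRCm38.p6, 5′ to 3′ on the strand of the gene, and for Irf1 and Irf8 the window of the start farthest upstream. Capitals mark letters of 3 motifs searched on both strands: GAAANNGAAA, the interferon-stimulated response element that IRF proteins and ISGF3 bind; TTCNNNGAA, the gamma-activated site of interferon-gamma-responsive genes; and GGGANNNNCC, an NF-kB site.
Irf1 (chr11:53769764-53770013, + strand): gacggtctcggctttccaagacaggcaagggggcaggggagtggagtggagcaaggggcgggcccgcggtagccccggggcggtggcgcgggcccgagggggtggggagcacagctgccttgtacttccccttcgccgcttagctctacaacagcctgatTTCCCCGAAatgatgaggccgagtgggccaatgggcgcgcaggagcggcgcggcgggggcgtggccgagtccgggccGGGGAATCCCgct
Irf2 (chr8:46739495-46739744, + strand): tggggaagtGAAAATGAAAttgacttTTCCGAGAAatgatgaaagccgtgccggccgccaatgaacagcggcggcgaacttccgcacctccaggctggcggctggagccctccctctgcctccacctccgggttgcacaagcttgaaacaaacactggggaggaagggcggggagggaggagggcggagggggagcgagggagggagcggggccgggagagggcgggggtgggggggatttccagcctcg
Irf7 (chr7:141266425-141266674, - strand): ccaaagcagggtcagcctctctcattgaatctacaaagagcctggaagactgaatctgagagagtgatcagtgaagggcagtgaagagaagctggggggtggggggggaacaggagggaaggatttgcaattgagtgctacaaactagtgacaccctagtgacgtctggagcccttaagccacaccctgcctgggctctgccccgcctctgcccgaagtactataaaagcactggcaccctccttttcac
Irf8 (chr8:120736108-120736357, + strand): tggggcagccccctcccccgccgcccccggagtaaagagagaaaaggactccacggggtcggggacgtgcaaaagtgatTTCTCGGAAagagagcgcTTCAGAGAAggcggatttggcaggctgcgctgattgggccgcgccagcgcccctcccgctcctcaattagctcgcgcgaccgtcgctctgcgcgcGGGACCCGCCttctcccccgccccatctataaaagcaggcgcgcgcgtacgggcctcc
The Irf1 window held the gamma-activated site TTCCCCGAA, with its last base 82 bases before the start, and on the reverse strand an NF-kB match, GGGGAATCCC, ending 4 bases before it. The Irf2 window held the only response element found among the members, GAAAATGAAA, ending 232 bases before the start, with TTCCGAGAA ending 216 bases before it. In the Irf8 window there were 2 gamma-activated sites, TTCTCGGAA and TTCAGAGAA, ending 163 and 145 bases before the start, and the NF-kB match GGGACCCGCC, ending 49 bases before it. Irf4, whose window is not printed, held GGGACAGCCC, and none of the 3 motifs was found in the windows of Irf3, Irf5, Irf7 and Irf9. The 8 members have 11 windows in all. Counted by gene, over any of its windows, the element was present for 1 member, the gamma-activated site for 3 and the NF-kB match for 3. Among the 27025 genes of the RefSeq table, counted the same way, 3.46% held the response element, 8.13% the gamma-activated site and 19.7% the NF-kB match, and among its 32851 windows 2.98%, 7.02% and 17.6%. A match describes letters and not bound factors, and a window without a match says nothing of elements farther away.

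LPS raised 6 of the 8 factors in every genotype. Irf7, the factor that amplifies the interferon response, rose most, about 32.3-fold in KO, 31.5-fold in dCIS and 37.8-fold in WT, followed by Irf1, Irf8, Irf2, Irf9 and Irf5. Irf3 was called slightly lower in each genotype, and Irf4 was barely expressed. By edgeR's quasi-likelihood test with Benjamini-Hochberg adjustment, 7 members were called in KO, all 8 in dCIS and 7 in WT, at an adjusted p under 0.05. LPS altered much of the transcriptome: 61.6% of the 14757 genes tested were called in KO, 64.7% in dCIS and 61.4% in WT. The 6 members called higher stand beside 30.9%, 31.3% and 30.4% of all genes called higher in KO, dCIS and WT. The LPS and untreated libraries did not overlap for 6 members in KO, 7 in dCIS and 7 in WT, where 59.0%, 51.4% and 61.8% of all genes did not overlap. The median log2 fold change of the members was 1.61 in KO, 1.77 in dCIS and 1.68 in WT, beside 0.02, -0.05 and 0.00 for all genes tested. In bulk RNA, fewer cells of a type and less RNA per cell cannot be told apart.

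**Figure D1:**
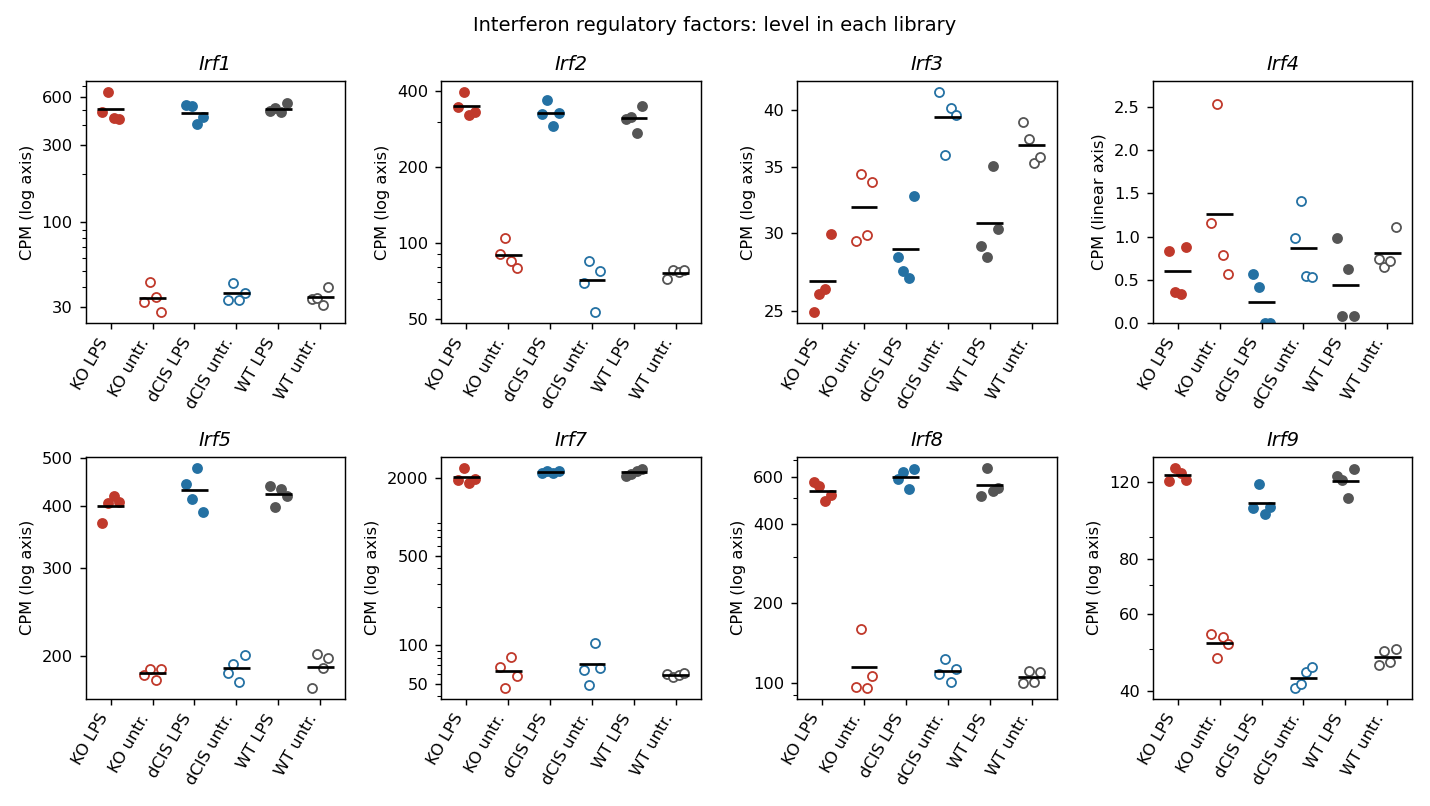
Level of each interferon regulatory factor in CPM (counts scaled to library size) in every library, by group, with filled points after LPS, open points untreated and a line at the mean of 4; the axis is logarithmic except for Irf4. Irf7 sits at 1857 to 2426 CPM after LPS and at 46.8 to 104.5 CPM untreated, while Irf3 moves by a few CPM and Irf4 stays at or below 2.53 CPM.

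The factors of the interferon beta loop were Irf3, Irf7 and Irf9. Irf7 stood at 1932, 2426, 1857 and 1986 CPM in the 4 KO libraries after LPS, against 67.6, 46.8, 81.6 and 57.7 CPM in untreated KO. In dCIS it was at 2199, 2285, 2190 and 2283 CPM after LPS and 64.5, 48.8, 104.5 and 66.5 CPM untreated. In WT it lay at 2108, 2170, 2278 and 2358 CPM after LPS and 59.5, 56.6, 58.8 and 60.8 CPM untreated. The levels after LPS were far above every untreated library, and they were close in the 3 genotypes. Its log2 fold change was 5.02 in KO (SE 0.190), 4.98 in dCIS (SE 0.190) and 5.24 in WT (SE 0.192), with edgeR adjusted p-values of 5.14e-18, 5.53e-18 and 2.50e-18. Untreated Irf7 varied more in KO and dCIS than in WT: the SD was 23.3% of the mean in KO and 33.2% in dCIS, against 2.97% in WT. Library 3 was the highest in untreated KO and in untreated dCIS. The summed level of 13 listed targets of IRF3 and ISGF3, Ifnb1 among them, was also highest there. It was 698 CPM in KO library 3 against 409.9 to 569 CPM in the other KO libraries. In dCIS library 3 it was 683.5 CPM, against 352.5 to 472 CPM in the other dCIS libraries. The part of these targets in the spread of Irf7 was not tested. In the GENCODE M21 annotation of GRCm38, Irf7 shares 45 exon bases with Phrf1 on the opposite strand, and the strand setting of the authors' counting was not stated.

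Irf9 encodes the DNA-binding subunit of ISGF3. Irf9 measured 121, 129.5, 126 and 121.5 CPM in the 4 KO libraries after LPS, against 54.0, 47.7, 53.2 and 51.2 CPM in untreated KO. In dCIS it measured 105, 119, 102 and 106 CPM after LPS and 40.7, 41.5, 44.2 and 45.3 CPM untreated. In WT it measured 124, 121, 110.2 and 129 CPM after LPS and 45.8, 49.4, 46.6 and 49.8 CPM untreated. No library after LPS overlapped an untreated one, and dCIS was the lowest genotype by mean in both conditions. By edgeR the log2 fold change of Irf9 was 1.27 in KO (SE 0.0773), 1.33 in dCIS (SE 0.0776) and 1.34 in WT (SE 0.0775), with edgeR adjusted p-values of 9.22e-14, 4.13e-14 and 3.27e-14. Irf9 shares 123 exon bases in the M21 annotation with Rnf31, a gene on the same strand with 707 to 2647 counts per library, so reads there may have been assigned to either gene or to none.

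Irf3 encodes the factor that is phosphorylated below TLR4 and starts the loop, and its RNA fell. Irf3 had 24.9, 26.1, 26.3 and 29.9 CPM in the 4 KO libraries after LPS, against 29.4, 34.4, 29.9 and 33.8 CPM in untreated KO. In dCIS it had 28.4, 27.5, 27.0 and 32.7 CPM after LPS and 41.7, 36.0, 40.2 and 39.5 CPM untreated. In WT it had 29.1, 28.3, 35.1 and 30.3 CPM after LPS and 38.9, 37.4, 35.3 and 35.9 CPM untreated. The LPS libraries were below all untreated ones in dCIS and WT, but in KO library 4 after LPS exceeded the lowest untreated library. The log2 fold change of Irf3 was -0.25 in KO (SE 0.0932), -0.45 in dCIS (SE 0.0925) and -0.26 in WT (SE 0.0923), with edgeR adjusted p-values of 0.0224, 1.49e-04 and 0.0156. The decrease was 1.19-fold in KO, 1.36-fold in dCIS and 1.2-fold in WT, where 30.7%, 33.3% and 31.0% of all genes were called lower. The KO call was lost without library 1 after LPS (adjusted p = 0.0693) and without untreated library 2 (0.0663) or 4 (0.0614) or both KO libraries numbered 2 (0.119, chosen after seeing the data), and the WT call without library 2 after LPS (0.0574), all by edgeR. Irf3 shares 88 exon bases with Bcl2l12 on the opposite strand, which had 7 to 187 counts per library.

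Irf1 and Irf2 are the activator and repressor pair. Irf1 stood at 482, 643, 444 and 437 CPM in the 4 KO libraries after LPS, against 32.1, 42.6, 34.3 and 27.9 CPM in untreated KO. In dCIS it was at 530.5, 525, 407 and 452.5 CPM after LPS and 33.0, 42.5, 33.3 and 36.8 CPM untreated. In WT it lay at 487, 511, 481 and 549 CPM after LPS and 33.8, 34.1, 30.6 and 39.9 CPM untreated. Groups did not overlap, and the level after LPS was within 407 to 643 CPM in the LPS libraries. On the log2 scale, Irf1 changed by 3.87 in KO (SE 0.147), 3.72 in dCIS (SE 0.146) and 3.87 in WT (SE 0.147), with edgeR adjusted p-values of 5.25e-18, 9.60e-18 and 4.85e-18. Irf2 had 343, 395, 319 and 330.4 CPM in the 4 KO libraries after LPS, against 90.3, 104, 84.4 and 79.1 CPM in untreated KO. In dCIS it had 324, 367, 289.5 and 327 CPM after LPS and 69.3, 84.2, 53.1 and 77.0 CPM untreated. In WT it had 308, 313, 271 and 349 CPM after LPS and 71.9, 77.6, 76.3 and 77.7 CPM untreated. Irf2 rose in every genotype, and less than Irf1 did. The corresponding log2 fold change of Irf2 was 1.95 in KO (SE 0.121), 2.20 in dCIS (SE 0.123) and 2.03 in WT (SE 0.122), with edgeR adjusted p-values of 1.45e-13, 1.40e-14 and 6.73e-14. Irf1 shares 135 exon bases with the gene model Gm17334 on the opposite strand, which had at most 10 counts in any library.

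Irf5 encodes the factor that MyD88 signalling activates for cytokine genes. Irf5 had 369, 405, 419 and 407 CPM in the 4 KO libraries after LPS, against 183.5, 188, 179 and 188 CPM in untreated KO. In dCIS it had 443, 413.5, 477 and 389 CPM after LPS and 185, 192, 177 and 201 CPM untreated. In WT it had 438, 398, 433 and 419 CPM after LPS and 173, 202, 189 and 198 CPM untreated. It rose 2.17-fold in KO, 2.28-fold in dCIS and 2.22-fold in WT, and the untreated libraries of the 3 genotypes lay between 173 and 202 CPM. As a log2 fold change this was 1.12 in KO (SE 0.0810), 1.19 in dCIS (SE 0.0811) and 1.15 in WT (SE 0.0810), with edgeR adjusted p-values of 3.66e-12, 9.70e-13 and 2.01e-12. Irf5 shares 411 exon bases with Tnpo3 on the opposite strand, a gene with 919 to 1633 counts per library.

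Irf8 and Irf4 are the members that pair with PU.1 and other partners. IRF8 sets the identity of monocytes and macrophages, and IRF4 is best known in lymphocytes and in alternatively activated macrophages. Irf8 stood at 574, 555, 489.5 and 516 CPM in the 4 KO libraries after LPS, against 96.7, 159.6, 96.0 and 106.5 CPM in untreated KO. In dCIS it was at 589, 630.5, 541.5 and 644 CPM after LPS and 108, 123.5, 101 and 113 CPM untreated. In WT it lay at 508, 652, 532 and 547 CPM after LPS and 99.7, 111, 101 and 109.6 CPM untreated. Irf8 rose in each genotype with no overlap, and the untreated KO library 2 stood above the other untreated libraries. The fit gave log2 fold changes for Irf8 of 2.22 in KO (SE 0.130), 2.43 in dCIS (SE 0.131) and 2.41 in WT (SE 0.131), with edgeR adjusted p-values of 4.46e-14, 7.52e-15 and 9.00e-15. The plasmacytoid dendritic cell list, a cell type rich in IRF8, moved the same way: its 5 genes summed to 298 to 389.7 CPM after LPS and to 45.4 to 92.6 CPM untreated, over all genotypes. Nearly all of that sum was Tcf4, at 360.5 CPM in KO, 327 CPM in dCIS and 337 CPM in WT after LPS. Ccr9, the other gene of this list with enough counts to test, was also called higher (3.01, 4.33 and 2.93 on the log2 scale in KO, dCIS and WT). Of all genes, 30.9%, 31.3% and 30.4% were called higher. Apart from Tcf4, no gene of the list averaged 1 CPM in untreated cells, or after LPS in KO and WT. Ly6d had too few counts to test. Klk1 had no count in any library, and Siglech averaged at most 0.0990 CPM in any group. The conventional dendritic cell list, a cell type that also depends on IRF8, summed to 0.879 to 2.47 CPM after LPS and to 0.186 to 1.13 CPM untreated; Clec9a, the one of its 5 genes with enough counts to test, was called higher (2.61, 3.03 and 3.08 on the log2 scale in KO, dCIS and WT). The part of both lists in the Irf8 result was not tested. The B and plasma cell list, 6 genes of which Cd79b alone passed 1 CPM, summed to 2.15 to 4.43 CPM after LPS and to 6.68 to 14.8 CPM untreated, the reverse direction to Irf8.

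Irf4 was close to the limit of detection. Its counts were 9, 4, 4 and 11 in KO after LPS and 24, 63, 16 and 12 in untreated KO. In dCIS they were 7, 5, 0 and 0 after LPS and 21, 30, 11 and 12 untreated. In WT they were 12, 1, 8 and 1 after LPS and 16, 14, 15 and 23 untreated. Within each genotype the LPS and untreated libraries overlapped in CPM, where Irf4 averaged 0.601 ± 0.295 after LPS and 1.26 ± 0.882 untreated in KO, 0.245 ± 0.290 and 0.868 ± 0.416 in dCIS, and 0.442 ± 0.443 and 0.806 ± 0.209 in WT (SD, n = 4). The fitted log2 fold change of Irf4 was -1.08 in KO (SE 0.618), -1.82 in dCIS (SE 0.738) and -0.86 in WT (SE 0.668), with edgeR adjusted p-values of 0.135, 0.0331 and 0.274. Only the dCIS decrease passed, and the 2 libraries without an Irf4 count, dCIS libraries 3 and 4 after LPS, are those with the fewest genes detected; a count of 0 allows up to 0.220 and 0.245 CPM there (3 counts, counting error only). Without both, the dCIS log2 fold change was -0.82 (adjusted p = 0.357, an alternative chosen after seeing the data). The call was also lost without library 3 (0.104) or 4 (0.0976) after LPS, and without untreated dCIS library 1 (0.0582) or 2 (0.10), and with only the groups compared in the fit (0.0632), by edgeR. The summed level of the B and plasma cell list, whose cell types use IRF4, was also lower after LPS, as given for Irf8, and its part in the Irf4 values was not tested.

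**Figure D2:**
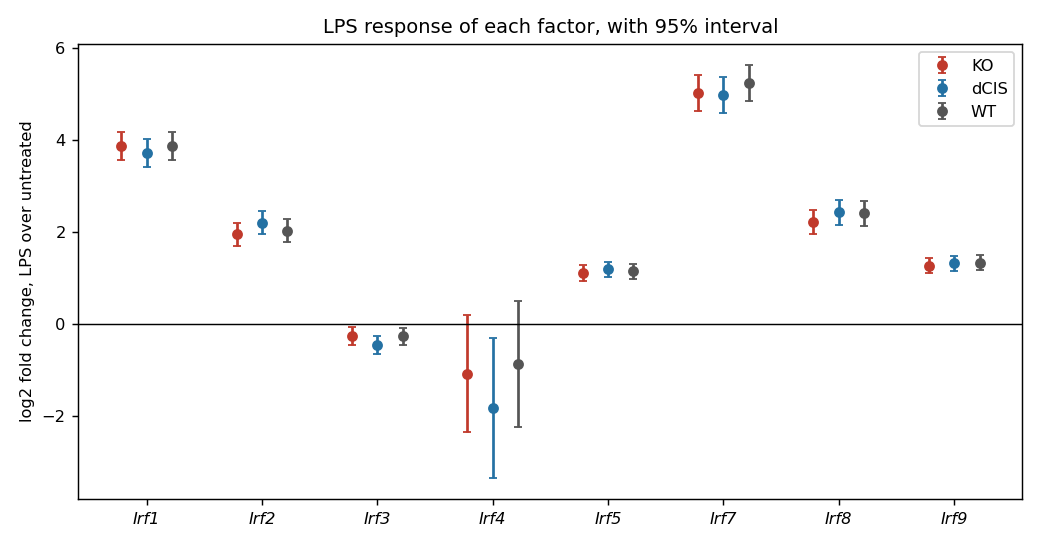
Log2 fold change of each factor, LPS over untreated, in KO, dCIS and WT, with the 95% interval of the edgeR fit (n = 4 libraries a group). The 3 genotypes sit side by side for every factor, from 5.02, 4.98 and 5.24 for Irf7 to -0.25, -0.45 and -0.26 for Irf3, and Irf4 has the widest intervals.

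Between genes, levels were compared per kilobase of exon (union of exons in GENCODE M21), which assumes that reads cover whole transcripts; the libraries were primed on oligo-dT beads. Irf5 led the family in untreated cells, at 63.6 ± 1.56 CPM per kb in KO, 65.0 ± 3.50 in dCIS and 65.5 ± 4.44 in WT (SD, n = 4). It held 46.6%, 47.1% and 48.6% of the summed level of the 8 members. Irf7 and Irf8 came next with overlapping ranges, at 16.8 and 16.3 CPM per kb in KO, 18.8 and 15.8 in dCIS and 15.6 and 14.9 in WT. Irf1, Irf2, Irf3 and Irf9 lay between 7.02 and 14.1 CPM per kb in KO, 7.18 and 12.1 in dCIS and 7.71 and 11.3 in WT, in an order that differed between genotypes, and Irf4 was last at 0.258, 0.177 and 0.164. After LPS, Irf7 led at 543 ± 67.8 CPM per kb in KO, 593 ± 13.7 in dCIS and 590.2 ± 29.5 in WT, which was 56.5%, 58.2% and 58.1% of the sum. The order by mean was then the same in the 3 genotypes: Irf7, Irf5, Irf1, Irf8, Irf2, Irf9, Irf3 and Irf4. Among neighbours in that order, Irf5 and Irf1 overlapped in KO and WT. With the length of the longest coding transcript, an alternative chosen after seeing the data, Irf5 still led untreated cells and Irf7 LPS-treated cells. The share of Irf5 was then lower, at 34.95% in KO, 35.9% in dCIS and 37.0% in WT, and that of Irf7 was 53.5%, 55.3% and 55.4%. By mean, Irf8 came second in untreated cells, overlapping the next member in KO and dCIS. Irf1 came second after LPS, overlapping Irf8 in dCIS and WT.

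**Figure D3:**
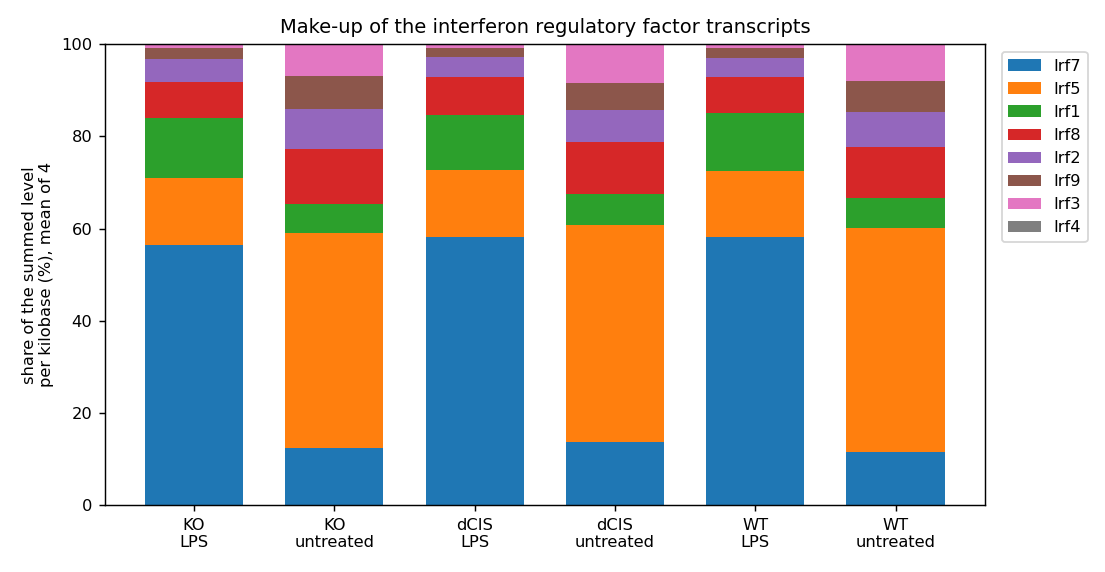
Share of each factor in the summed level per kilobase of the 8 interferon regulatory factors, as the mean of 4 libraries, in each group. By the union of exons as length, Irf5 makes up 46.6% to 48.6% in untreated cells, and Irf7 makes up 56.5% to 58.2% after LPS in the 3 genotypes.

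No factor was called between KO and WT. In KO against WT, edgeR called 0 of 8 members in untreated cells and 0 of 8 after LPS, where 7.31% and 2.74% of all genes were called. At an unadjusted p under 0.05 there was 1 member in each condition (all genes: 25.2% and 21.2%), and DESeq2 called 0 in both. That member was Irf3, at 31.9 ± 2.58 CPM in untreated KO and 36.9 ± 1.63 CPM in untreated WT (log2 -0.21, SE 0.0910, adjusted p = 0.150). After LPS it was at 26.8 ± 2.15 CPM in KO and 30.7 ± 3.05 CPM in WT (log2 -0.20, SE 0.0945, adjusted p = 0.233; SD, n = 4). The untreated KO libraries lay below all untreated WT libraries for Irf3 and above them for Irf2, 2 of 8 members without overlap where 21.5% of all genes did not overlap; after LPS every member overlapped, beside 18.3% of all genes without overlap. Irf4 had the greatest positive log2 fold change, 0.66 untreated (95% interval -0.47 to 1.79) and 0.45 after LPS (-1.07 to 1.97), neither called. The untreated value was 0.06 without KO library 2, and the value after LPS ran from 0.10 without WT library 2 to 1.17 without WT library 1. For the 7 members other than Irf4, the 95% intervals lay within -0.40 and 0.48 untreated and within -0.45 and 0.40 after LPS on the log2 scale.

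The dCIS macrophages, too, had no factor called against WT. In dCIS against WT, edgeR called 0 of 8 members untreated and 0 of 8 after LPS, and 0.0542% and 0.258% of all genes. There was 1 member at an unadjusted p under 0.05 in each condition (all genes: 3.61% and 13.1%), and DESeq2 called 0. It was Irf9, at 42.9 ± 2.18 CPM in untreated dCIS and 47.9 ± 2.00 CPM in untreated WT (log2 -0.16, SE 0.0768, adjusted p = 1.00). After LPS it was at 108 ± 7.51 CPM in dCIS and 121 ± 7.90 CPM in WT (log2 -0.17, SE 0.0761, adjusted p = 0.336; SD, n = 4). Untreated dCIS and WT libraries did not overlap for Irf9, 1 of 8 members beside 2.51% of all genes, and after LPS each member overlapped, beside 6.86%. The largest differences upward were 0.27 for Irf7 untreated (95% interval -0.06 to 0.60) and 0.10 for Irf8 after LPS (-0.15 to 0.36), and the largest downward after LPS was -0.85 for Irf4 (-2.61 to 0.90). On leaving out single libraries, Irf7 ran from 0.04, without dCIS library 3, to 0.41, Irf8 from 0.06 to 0.18 and Irf4 from -1.68 to -0.13. The 7 members other than Irf4 had intervals within -0.34 and 0.60 untreated and within -0.35 and 0.36 after LPS. The KO and dCIS comparisons share the same WT libraries.

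KO and dCIS differed from each other in untreated cells. Irf9 and Irf2 were higher and Irf3 lower in KO, 3 of 8 members called, where 21.3% of all genes were called, 12.1% higher and 9.25% lower. Irf9 averaged 51.5 ± 2.83 CPM in KO and 42.9 ± 2.18 CPM in dCIS (log2 0.26, SE 0.0767, adjusted p = 0.0172, edgeR). Irf3 averaged 31.9 ± 2.58 CPM in KO and 39.4 ± 2.40 CPM in dCIS (log2 -0.30, SE 0.0909, adjusted p = 0.0201). Irf2 averaged 89.6 ± 10.9 CPM in KO and 70.9 ± 13.4 CPM in dCIS (log2 0.34, SE 0.118, adjusted p = 0.0429; SD, n = 4). The libraries did not overlap for Irf9 and Irf3, 2 members beside 18.7% of all genes, while for Irf2 the dCIS library 2 exceeded KO library 4. The fold changes were small, 1.2-fold and 1.26-fold higher and 1.23-fold lower in KO, and each of the 3 calls was lost on leaving out some single library. With no filter on low counts edgeR called 0 members (adjusted p = 0.253 for Irf9, 0.146 for Irf3 and 0.0720 for Irf2), and with only the groups compared in the fit it also called 0 (0.0868, 0.0651 and 0.140). Without untreated KO library 1 or dCIS library 1, edgeR called 0 members (adjusted p for Irf9 = 0.0557 and 0.0569, for Irf3 = 0.0712 and 0.0640), and without KO or dCIS library 3 it called Irf9 alone. Irf2 was not called without untreated KO library 2 either (adjusted p = 0.143). After LPS, edgeR called 0 members and 2.18% of all genes, and 1 member, Irf9, was at an unadjusted p under 0.05 (20.2% of all genes). Irf9 then averaged 124 ± 4.10 CPM in KO and 108 ± 7.51 CPM in dCIS, without overlap (log2 0.21, SE 0.0761, adjusted p = 0.130, edgeR), as for 7.89% of all genes. The 8 macrophage markers summed to 19800 to 21590 CPM in untreated KO and 15530 to 19880 CPM in untreated dCIS, with 1 of 8 called, Adgre1, higher in KO, and the part of this in the 3 calls was not tested. After LPS, DESeq2 called Irf9 (adjusted p = 0.0454), as did edgeR without dCIS LPS library 2 (0.0400).

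**Figure D4:**
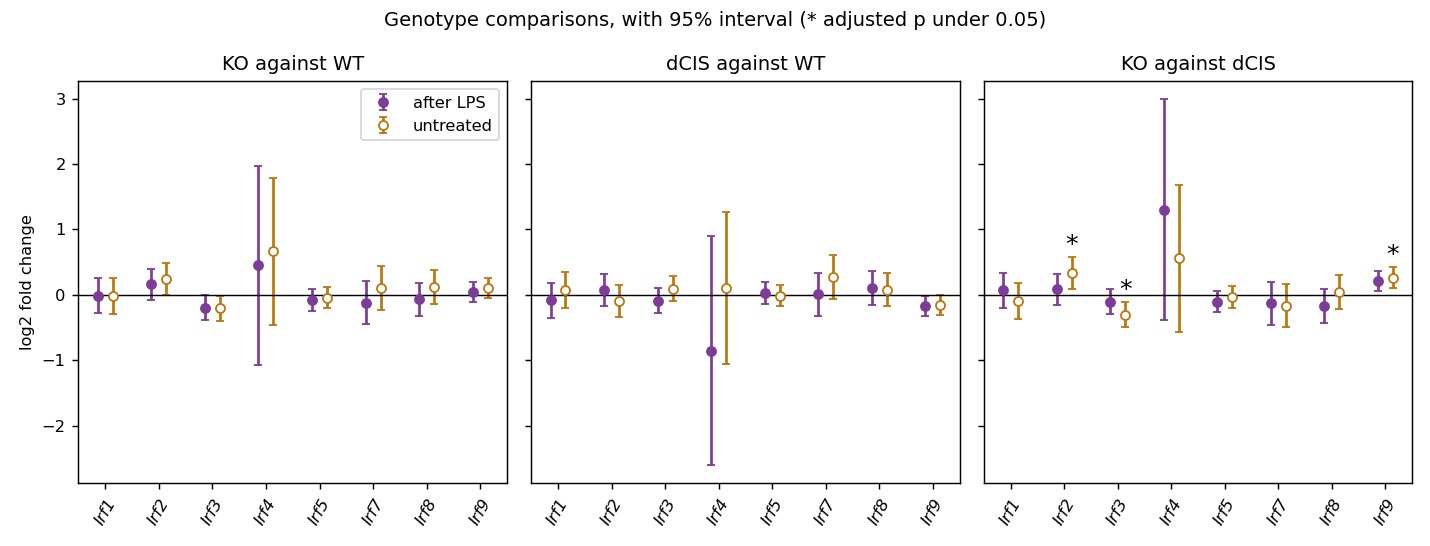
Log2 fold change of each factor between genotypes, after LPS (filled) and untreated (open), with the 95% interval of the edgeR fit; a star marks an adjusted p under 0.05. Stars stand at Irf2, Irf3 and Irf9 in untreated KO against dCIS, at 0.34, -0.30 and 0.26, and Irf4 has the widest intervals.

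The LPS response itself was compared by the interaction term, that is, the response of KO or dCIS minus that of WT. For KO, edgeR called 0 of 8 members, with 0 at an unadjusted p under 0.05 and 0 by DESeq2, beside 0.0203% of all genes called and 1.75% at an unadjusted p under 0.05. The differences ran from -0.23 for Irf7 (95% interval -0.69 to 0.24) to 0.01 for Irf3 (-0.26 to 0.28). The sign for Irf3 turned under RLE size factors (-0.01) and DESeq2 (-0.01). For dCIS, edgeR again called 0 members, with 0 at an unadjusted p under 0.05 and 0 by DESeq2, beside 0.00% and 7.85% of all genes. The differences ran from -0.96 for Irf4 (95% interval -3.06 to 1.14), which was 0.05 without dCIS LPS libraries 3 and 4, to 0.17 for Irf2 (-0.17 to 0.51). On leaving out single libraries, the difference for Irf7 in KO ran from -0.35 to -0.09, and in dCIS that for Irf4 from -1.79 to -0.24 and that for Irf2 from 0.045 to 0.26. For the 7 members other than Irf4, the 95% intervals of the difference lay within -0.69 and 0.39 for KO and within -0.73 and 0.51 for dCIS on the log2 scale.

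Most genes around the factors moved with LPS, as did most genes tested. The genes around the factors were read from 10 lists that held 70 tested genes, of which edgeR called 65 in KO, 64 in dCIS and 65 in WT. Of all genes tested, 61.6%, 64.7% and 61.4% were called. Those called higher were 30.9%, 31.3% and 30.4% of all genes, and those called lower 30.7%, 33.3% and 31.0%. The median log2 fold change of all genes was 0.02, -0.05 and 0.00. Below, 3 values in a row are log2 fold changes in KO, dCIS and WT in that order. The list of the signal that activates IRF proteins runs from TLR4 to the kinases. It also holds Mavs and Sting1, adaptors of routes other than TLR4. Of its genes, 14 of 18 rose and 4 fell in KO, 14 and 3 in dCIS and 14 and 4 in WT. The medians were 0.76, 0.91 and 0.76. The rises with the smallest p in WT were those of Myd88, the adaptor (2.65, 2.65 and 2.67), Tank, a scaffold of TBK1 (2.93, 3.03 and 2.78), Tbk1, a kinase of IRF3 (1.81, 1.67 and 1.78), and Ly96, the TLR4 co-receptor (1.59, 1.34 and 1.62). The 4 that fell in WT, named after their values were seen, were Irak1 (-0.92), Mavs (-1.24), Traf3 (-0.66) and Irak4 (-0.35). Of the interferon receptors and their kinases, 6 of 7 rose and 1 fell in KO, 6 and 1 in dCIS and 6 and 1 in WT, with medians of 1.34, 1.38 and 1.36. Jak2, the kinase of the interferon gamma receptor, rose by 4.17, 4.26 and 4.09, and Tyk2, a kinase of the interferon alpha and beta receptor, by 2.11, 2.27 and 2.07. The gene that fell, Ifngr1, the ligand-binding chain of the interferon gamma receptor, named after its values were seen, changed by -1.56, -1.40 and -1.65. Stat2 rose by 3.15, 3.50 and 3.24, and it was called higher in each genotype, as was Irf9, its partner in ISGF3. Ifnb1 was the only one of 7 interferon genes with enough counts to test. It was called higher in each genotype, with 120 counts over the 4 libraries after LPS and 2 untreated in KO, 79 and 1 in dCIS, and 129 and 9 in WT.

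The listed target genes rose. Their lists were chosen with earlier results of these data known, so the counts describe the lists and do not test them. Of all genes tested, 30.9%, 31.3% and 30.4% were called higher in KO, dCIS and WT. All 13 listed targets of IRF3 and ISGF3, Ifnb1 among them, were called higher in KO, dCIS and WT, with medians of 6.40, 6.37 and 6.32. Examples are Ccl5, a chemokine (10.12, 10.30 and 9.77), Rsad2, which encodes the antiviral enzyme viperin (7.71, 7.88 and 7.98), Ifit2 (6.44, 6.89 and 6.71) and the chemokine Cxcl10 (9.58, 10.03 and 10.00). The 11 tested of 12 listed IRF1 targets were likewise called higher in each genotype, with medians of 6.85, 7.04 and 7.21. Among them were Gbp3 and Gbp2, guanylate-binding proteins of antibacterial defence (6.85, 7.17 and 7.21, and 7.08, 7.04 and 7.42), the cytokine gene Il27 (8.59, 8.29 and 8.95) and Socs1, an inhibitor of JAK kinases (6.68, 6.79 and 6.75). Of 7 partner factors of IRF4 and IRF8, 4 rose and 2 fell in each genotype. Batf2 rose by 4.89, 4.91 and 4.94, Batf by 2.78, 2.87 and 2.78, Bcl6 by 1.09, 1.40 and 1.07 and Spi1, the gene of PU.1, by 1.00, 1.08 and 1.04. The decreases were those of Batf3 (-0.70, -1.42 and -1.10) and of Tcf3, named after its values were seen (-1.51, -1.32 and -1.34). Of 6 genes driven by IRF8 and PU.1, 4 rose in KO, 3 in dCIS and 4 in WT, and 0 fell; Il18, the gene of interleukin-18, rose by 4.85, 4.69 and 4.75 and Cybb, the NADPH oxidase subunit, by 1.91, 2.04 and 2.06. Of 7 genes tied to alternative activation 3 had enough counts, and Ccl22 (4.04, 5.05 and 4.77) and Kdm6b, a histone demethylase (1.85, 2.24 and 1.64), rose in each genotype while Mrc1 was not called. Of the 3 corepressors that bind IRF2, Irf2bp2 (-2.46, -2.17 and -2.72) and Irf2bp1 (-0.52, -0.60 and -0.41) fell in each genotype, and Irf2bpl was called in dCIS only, at 0.60, against 0.10 in KO and 0.22 in WT. The interaction term called 0 of the 3 corepressors for KO minus WT and 0 for dCIS minus WT.

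Between genotypes, edgeR called some of the 70 genes around the factors in untreated KO against WT and in untreated KO against dCIS. Neither count stood far from the share of all genes called. In untreated KO against WT, edgeR called 3 of the 70 pathway genes: Ifnar1, a chain of the interferon alpha and beta receptor (0.44, adjusted p = 0.0394), and Cybb (0.48, adjusted p = 0.0324) were higher and Batf3 lower (-0.81, adjusted p = 0.0369), where 7.31% of all genes were called. At an unadjusted p under 0.05 there were 20 of the 70, beside 25.2% of all genes. DESeq2 called 14, beside 2164 of the 9509 genes to which it gave an adjusted p. After LPS edgeR called 0 of the 70, beside 2.74% of all genes, with 15 at an unadjusted p under 0.05, beside 21.2%. DESeq2 called 2, Jak2 and Tirap, beside 1093 of 10209 genes. In dCIS against WT, edgeR and DESeq2 called 0 in either condition, where edgeR called 0.0542% of all genes untreated and 0.258% after LPS. At an unadjusted edgeR p under 0.05 there were 5 in untreated cells and 9 after LPS, beside 3.61% and 13.1% of all genes. In untreated KO against dCIS, edgeR called 17 of 70, 15 higher and 2 lower. Of all genes 21.3% were called, 12.1% higher and 9.25% lower. With only the groups compared in the fit, 1317 of all genes were called, against 3147, and the 17 were not followed there. DESeq2 called 24, beside 3688 of 14411 genes. The edgeR calls included 5 of the 7 receptor and kinase genes, all higher in KO: Ifnar1 (0.59, adjusted p = 0.00402), Jak1 (0.42, adjusted p = 0.0290), Jak2 (0.38, adjusted p = 0.0164), Tyk2 (0.37, adjusted p = 0.0166) and Ifngr2 (0.27, adjusted p = 0.0289). The median log2 fold change of all 7 genes of that list was 0.37, beside 0.00 for all genes. Of the signal list, Tlr4 (0.52, adjusted p = 0.0330) and Tank (0.39, adjusted p = 0.0499) were higher, 2 of 18, beside 12.1% of all genes. Stat2, the partner of IRF9, was higher (0.44, edgeR adjusted p = 0.00773). Of the 13 targets of IRF3 and ISGF3, 2 were higher, beside 12.1% of all genes. They were Ifit2 (0.68, edgeR adjusted p = 0.0111) and Mx1 (0.71, edgeR adjusted p = 0.0112). Among the IRF1 targets, Cd274, the gene of PD-L1 (0.66, adjusted p = 0.0150), Gbp3 (0.47, adjusted p = 0.0448) and Nos2, which averaged under 1 CPM in both groups, were higher, and Psmb8, a subunit of the immunoproteasome, was lower (-0.50, adjusted p = 0.00872). Of the partner factors Bcl6 was higher (0.31, adjusted p = 0.0314) and Batf3 lower (-1.01, adjusted p = 0.00497), and Cybb was higher (0.54, adjusted p = 0.00748). After LPS, edgeR called 0 genes of the lists in KO against dCIS, beside 2.18% of all genes, with 13 at an unadjusted p under 0.05, beside 20.2%. DESeq2 called 4, Cybb, Ifnar1, Irf2bpl and Tbk1, beside 675 of 13710 genes. For both interaction terms, edgeR and DESeq2 called 0 of the 70, where edgeR called 0.0203% of all genes for KO and 0.00% for dCIS. At an unadjusted edgeR p under 0.05 there were 0 for KO and 5 for dCIS, beside 1.75% and 7.85% of all genes.

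The genes whose profile over the 6 group means was most like that of each member were found by the root mean square distance between centred log2(CPM + 0.5) values, among 8691 genes with a symbol and a mean of at least 5 CPM (8692 for Irf4). For Irf7 they included Ifit3 (0.0980) and Ifit3b (0.103). For Irf1 they were Tap1 (0.0507), Casp4 (0.0681) and Il18bp (0.0942), and the LPS response of Tap1 was 3.85, 3.72 and 4.03, beside 3.87, 3.72 and 3.87 for Irf1 in KO, dCIS and WT. Closest to Irf8 were Rnf31 (0.0654), Tbc1d13 (0.0665) and Sh3bp4 (0.0675). The genes nearest to Irf2 were Gpr18 (0.0338), Trim56 (0.0382) and Pik3cd (0.0429), and those nearest to Irf9 were Dram2 (0.0345), Tdg (0.0403) and Pxk (0.0466). Irf5 was nearest to Spop (0.0314), Igbp1 (0.0324) and Iffo2 (0.0360), Irf3 to Fuca1 (0.0299), Tex264 (0.0307) and Gtf2h4 (0.0322), and Irf4, at its low counts, to Rell1 (0.0694), Dhx33 (0.0784) and Plekha8 (0.0817). Among the members, Irf5 and Irf9 had the most similar profiles (distance 0.146), then Irf2 and Irf8 (0.187), and Irf4 and Irf7 the least similar (2.88).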

How the data were processed

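RNA of 24 bone marrow-derived macrophage libraries was captured on oligo-dT beads and sequenced as read pairs, per the labels' protocols. The authors deposited 1 table of raw counts per Ensembl gene. STAR, edgeR and the build mm39 are named in the submitters' processing notes, without versions; the counting program, strand setting and annotation release were not stated. Symbols were matched by Ensembl ID to GENCODE M21 (51948 of 56941 genes, 91.23%), which also gave the exon lengths and overlaps on GRCm38. Promoter windows came from RefSeq (GRCm38.p6).

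All 24 libraries entered 1 quasi-likelihood fit in edgeR 4.0.16 (limma 3.58.1, R 4.3.3) with TMM scaling and filterByExpr (minimum count 10, minimum total 15), which left 14757 genes. Tests were 2-sided, with Benjamini-Hochberg adjustment over these genes and a threshold of 0.05, and SE is the size of the log2 fold change divided by the square root of F. CPM used TMM-scaled library sizes. The fit was tested on simulated counts. DESeq2 1.42.0, other scalings and filters, the replicate number as a block, and each library left out in turn were the alternatives. Tables were joined and ranked with pandas 2.3.3 under Python 3.11.15. Intervals are those of the fit and cover the spread between libraries only. None of the 36 pairs of libraries within a group agreed within sampling noise.

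The members and all lists were chosen with earlier results of these data known. All 8 members are named in the LPS comparisons; between genotypes, those called or at an unadjusted p under 0.05 and those with the greatest fold changes either way; of each list, up to 4 genes with the smallest p for LPS in WT and any called between genotypes. Other names are said to be chosen after their values were seen. Same-numbered libraries correlated above 0.1 in the LPS response of KO (correlation of deviations from group means, 0.155 to 0.296 over 4 pairs) and of WT (0.113 to 0.150). They also did in untreated KO against dCIS (0.114 to 0.359). The same number correlated best for 4 of 4 libraries in the LPS response of each genotype, with 0.040 to 0.339 in dCIS. In untreated KO against dCIS it did for 3 of 4, as KO library 4 correlated more with another dCIS library (0.160). By this check of the data the numbers pair the libraries in the LPS response, weakly in dCIS. The labels do not say what a number marks. The values of 2 genes that these rules would name are not reported here.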

Additional observations from a re-analysis of the deposited data

Results flagged for a closer look

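Irf8 in untreated KO library 2 stood at 159.6 CPM, against 96.0 to 106.5 CPM in the other 3 libraries of that group, and the gap to the nearest library was 0.835 of the range of the group, past Dixon's 95% critical value for 4 libraries. It was the only value marked among 48 sets of 4 libraries (8 genes in 6 groups), where chance marks about 1 in 20. In that library Irf1, Irf2, Irf3 and Irf4 were also the highest of the group, and Irf7 and Irf9 the lowest. The plasmacytoid dendritic cell list summed to 92.6 CPM there and to 53.9 to 58.9 CPM in the other untreated KO libraries, the B and plasma cell list to 13.3 CPM and to 6.68 to 8.52 CPM, and the macrophage list to 21590 CPM and to 19800 to 20430 CPM. Their part in the Irf8 value was not tested. Without this library the LPS response of Irf8 in KO was 2.41 on the log2 scale, against 2.22 with it.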

How the results depend on the processing

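The LPS responses of Irf1, Irf2, Irf5, Irf7, Irf8 and Irf9 kept their direction and their call in each genotype under every alternative run. The number of members called was 6 to 7 in KO, 7 to 8 in dCIS and 6 to 7 in WT on leaving out single libraries. In untreated KO against dCIS, 3 members were called, but 0 with no filter on low counts and 0 with only the groups compared in the fit, and 0 to 3 on leaving out single libraries. After LPS the count was 0, but 1 with DESeq2, and 0 to 1 on leaving out single libraries. Of values without a call, Irf4 in dCIS against WT after LPS turned to 0.155, and its difference of the LPS response to 0.0471, without dCIS LPS libraries 3 and 4. Irf4 in untreated KO against dCIS ran from -0.0477 to 0.888 on leaving out single libraries, and was -0.0473 without both KO libraries numbered 2. Both of these settings were chosen after seeing the data. The difference of the LPS response of Irf3, KO minus WT, was 0.01 and turned to -0.0144 with RLE size factors and to -0.0135 with DESeq2, with a range of -0.0473 to 0.0814 on leaving out single libraries. The cause was not tested. Irf4 in KO after LPS was called with no filter (adjusted p = 0.0273). With the replicate number as a block shared by the genotypes, 7 members were called for LPS in KO, 8 in dCIS and 7 in WT. In untreated KO against dCIS 3 were called, and 0 in the other comparisons, so this block changed no count of members. A block within each genotype, run for the LPS responses and interaction terms only, gave the same counts of members there. Over all genes, the calls in untreated KO against WT were 1079, but 2164 with DESeq2 and 1973 with the block; after LPS 405, but 1093, 1058 and, with no filter, 1038; in dCIS against WT 8 untreated, but 15, 34 and 80, and 38 after LPS, but 224, 91 and 277; and in KO against dCIS after LPS 322, but 675, 751 and 850. With only the groups compared in the fit they were 2351 in untreated KO against WT and 1995 after LPS, 12 in dCIS against WT after LPS, and 82 in KO against dCIS after LPS and 1317 untreated, against 3147. The interaction terms called 3 genes for KO and 0 for dCIS, but 5 and 1 with DESeq2 and 12 and 35 with no filter. Same-numbered libraries did not all correlate above 0.1 in LPS for dCIS (0.040 to 0.339) or in the other genotype comparisons. At 0 to 63 counts per library, depth limits what can be said of Irf4.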

Other observations

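Untreated library 2 held the same rank for Irf8 and for Irf7 in each genotype. These members were picked after their values were seen, and the share of all genes with such a rank was not counted. Irf8 was highest in library 2 in each genotype, at 159.6 CPM in KO, 123.5 CPM in dCIS and 111 CPM in WT. Irf7 was lowest in library 2 in each genotype, at 46.8 CPM in KO, 48.8 CPM in dCIS and 56.6 CPM in WT. For Irf8, library 4 was the next highest in each genotype, at 106.5 CPM in KO, 113 CPM in dCIS and 109.6 CPM in WT. For Irf7, the ranks of the other numbers differed between genotypes, with Irf7 highest in library 3 in KO and dCIS and in library 4 in WT. No other member had library 2 at the same end in each genotype. Irf1 and Irf2 were highest in library 2 in KO and dCIS but in library 4 in WT. Over all genes, deviations of untreated library 2 from the group mean correlated at -0.0036 between KO and WT. They correlated at -0.154 between dCIS and WT and at 0.359 between KO and dCIS. The labels do not say what the number stands for.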
